A study of Mus musculus with 105 samples.

Results

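Tbx1, Tbx2, Tbx4, Tbx5, Tbx6, Tbx15, Tbx18 and Tbx20 are 8 genes of the T-box family. They were picked by name, with earlier results of these data known. Left out were 9 other T-box genes, T (Brachyury), Eomes and Tbx3 among them. The 8 members are among 53656 gene symbols in 2 of the datasets and 27179 Entrez gene IDs in the other 3. All 8 were listed in all 5 datasets. T-box genes encode transcription factors that share a DNA-binding domain, the T-box, and bind a short DNA element at genes of mesoderm, heart, limb and pharyngeal development. In mouse embryonic stem cells (mESCs), which can form every tissue of the embryo, most of the family is known as a target of Polycomb repressive complex 2 (PRC2). PRC2 methylates histone H3 at lysine 27 through a catalytic subunit that works only with SUZ12, the subunit that was deleted, returned, rebuilt or degraded here.

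RNA sequencing counts of 93 libraries were used, 3 for each of 31 groups, in 5 datasets that were normalised and tested separately. The rescue panel was made in E14TG2a mESCs in serum and LIF and holds 8 groups. Of these, 7 carry a Suz12 knockout: knockout with S12N:SUV2, knockout with S12N:SUV2* (labelled dead), knockout with S12N:SD2, knockout with S12N:SD2*, knockout with S12N alone, knockout with wild-type SUZ12, and the knockout itself. The eighth group is wild-type cells. S12N is SUZ12 without its VEFS domain, the part that contacts the catalytic subunit. The labels do not spell out what the fusion partners SUV2 and SD2 are. Both RBBP5 datasets use an RBBP5-FKBP line, in which RBBP5, a core subunit of the complexes that methylate histone H3 at lysine 4, carries a tag through which dTAG13 directs its degradation. Each holds that RBBP5-FKBP line with a Suz12 knockout and a fusion (S12N:SUV2 in one, S12N:SD2 in the other), the same line with the Suz12 knockout alone, and the parental RBBP5-FKBP line, each after 24 h of dTAG13 or of DMSO, its solvent. In the dataset with S12N:SD2 the dTAG13 dose was 500 nM. In the degron dataset, the TCF line carries SUZ12-mAID and OsTIR, so that auxin (IAA, 50 µM) directs SUZ12 protein to degradation. Cells had DMSO for 48 h, or auxin for 2, 4, 8, 24 or 48 h, and the shorter times have no DMSO group of their own length. The HP1a dataset holds E14Tg2a Suz12 knockout cells with S12N fused to the HP1a chromodomain, knockout with S12N, knockout with full-length SUZ12, the knockout itself, and wild-type cells. The labels name no number of clones per line, and a further 12 samples in 4 groups treated with a KDM4 inhibitor were not analysed here.

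In the mouse build GRCm38, Tbx1 lies at chr16:18580979-18590671 on the minus strand, Tbx15 at chr3:99240381-99354259 on the plus strand, Tbx18 at chr9:87702800-87731260 on the minus strand and Tbx20 at chr9:24718138-24774303 on the minus strand. These 4 belong to the Tbx1 subfamily. Tbx2 at chr11:85832551-85841948 and Tbx4 at chr11:85886422-85916097 both lie on the plus strand, with the protein-coding gene Gm11444 (chr11:85846790-85850333, minus strand) between them, and Tbx5 at chr5:119832668-119885219 lies beside Tbx3 on the same strand. These 3 belong to the Tbx2 subfamily. Tbx6 lies at chr7:126781483-126785560 on the plus strand and is grouped apart. A gene on the opposite strand, Gm43120, overlaps Tbx15, and D030062O11Rik overlaps the start of Tbx18 on the opposite strand; neither was listed in the tables. The labels name library kits but no strand setting for the counting, so reads from these overlapping genes cannot be told apart from Tbx15 and Tbx18 reads.

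The promoters are shown because PRC2 is known to bind at promoters rich in CpG dinucleotides, and the members differ in how rich their starts are. RefSeq windows of 300 bases (250 before to 50 after a transcript start, GRCm38.p6, written 5′ to 3′ on the gene's strand) were at hand for 5 of the 8 members, Tbx1, Tbx4, Tbx6, Tbx18 and Tbx20. Each CG is in capitals in the 4 windows printed here: Tbx20 at chr9:24774254-24774553 on the minus strand, Tbx18 at chr9:87731211-87731510 on the minus strand, Tbx1 at chr16:18590622-18590921 on the minus strand and Tbx6 at chr7:126781233-126781532 on the plus strand.
Tbx20: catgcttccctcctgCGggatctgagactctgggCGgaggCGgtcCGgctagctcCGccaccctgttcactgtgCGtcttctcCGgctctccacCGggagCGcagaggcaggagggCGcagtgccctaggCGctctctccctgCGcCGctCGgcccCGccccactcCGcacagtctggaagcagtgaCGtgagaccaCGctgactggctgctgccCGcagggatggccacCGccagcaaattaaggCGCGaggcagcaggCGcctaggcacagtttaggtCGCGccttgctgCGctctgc
Tbx18: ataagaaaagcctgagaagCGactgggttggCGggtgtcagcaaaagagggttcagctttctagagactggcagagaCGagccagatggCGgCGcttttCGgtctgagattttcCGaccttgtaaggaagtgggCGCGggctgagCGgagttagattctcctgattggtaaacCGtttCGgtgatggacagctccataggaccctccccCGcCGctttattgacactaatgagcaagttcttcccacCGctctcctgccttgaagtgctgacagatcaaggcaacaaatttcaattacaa
Tbx1: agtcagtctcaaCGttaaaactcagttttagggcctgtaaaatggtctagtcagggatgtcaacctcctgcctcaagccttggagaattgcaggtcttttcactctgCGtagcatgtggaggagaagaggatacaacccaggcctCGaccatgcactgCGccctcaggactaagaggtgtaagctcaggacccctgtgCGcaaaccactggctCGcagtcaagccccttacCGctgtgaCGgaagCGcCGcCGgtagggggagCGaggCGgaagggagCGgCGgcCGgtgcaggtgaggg
Tbx6: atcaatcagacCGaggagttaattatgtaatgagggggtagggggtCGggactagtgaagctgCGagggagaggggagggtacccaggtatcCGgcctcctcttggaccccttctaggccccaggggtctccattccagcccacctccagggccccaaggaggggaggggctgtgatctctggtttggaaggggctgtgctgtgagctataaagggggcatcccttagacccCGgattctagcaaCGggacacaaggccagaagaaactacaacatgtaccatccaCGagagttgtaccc

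The Tbx20 window holds 26 CpG, more than 83.1% of the 32851 windows of 27025 genes in the same table, in which the median was 7 and the quartiles were 3 and 20. The Tbx18 window holds 15 CpG, and the Tbx1 window printed holds 16. A second Tbx1 start, at chr16:18588850-18589149 on the minus strand, holds 26. Tbx6 with 7 CpG and Tbx4 with 8 CpG were near the median. The Tbx4 window, chr11:85896515-85896814 on the plus strand, lies inside the gene, past its annotated start at chr11:85886422. No window at that start was at hand. The T-box element AGGTGTGA, searched on both strands, was in none of the 6 member windows and in 1.28% of all windows, and its shorter core GGTGTGA, which overlaps it, was in none of them and in 3.98% of all. The letters TATAAA, searched on both strands, were in the Tbx6 and Tbx4 windows and in 13.6% of all windows. These are matches of letters within the windows only.

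The depth, as total counts per library in M (mega), was 8.80 to 29.97 M in the rescue panel, 18.59 to 22.26 M for RBBP5 with SUV2, 11.44 to 17.78 M for RBBP5 with SD2, 8.31 to 18.81 M in the degron dataset and 5.48 to 21.72 M in the HP1a dataset. Suz12 itself, in CPM (counts per M counts of a library), was 45.6 to 66.7 in panel knockout cells, against 271 to 319 in wild-type cells, and likewise lower in the knockout libraries of the other datasets (31.2 to 74.8 CPM with or without dTAG13, against 241 to 399 CPM in parental or wild-type cells). Suz12 in panel groups with a construct averaged 298 CPM with S12N, 269 with SUZ12, 237 with S12N:SUV2* and 181 with S12N:SUV2. It was 222 CPM with S12N:SD2* and 114 CPM with S12N:SD2. In the HP1a dataset it averaged 169 CPM with full-length SUZ12, 120 with S12N, 98.2 with the HP1a fusion and 296 in wild-type cells. The part of these levels in the T-box values was not tested. In the degron dataset Suz12 RNA was 199 to 206 CPM at 48 h of auxin, against 163 to 209 CPM with DMSO. The tag acts on the protein, so this RNA does not check the depletion. Likewise dTAG13 acts on RBBP5 protein, and Rbbp5 RNA was still counted in every library. In the rescue panel, the columns of knockout and wild-type cells (8.8 to 10.69 M) carry the words Ebdiff and day0, which those of the 6 groups with a construct (17.04 to 29.97 M) do not, and wild type was given the only column set left. Where a group with a construct is compared with knockout or wild-type cells, the group and the column set cannot be told apart. The 3 libraries at 24 h of auxin stood apart: their mean correlation with their own group was 0.967, 0.956 and 0.937, and it was at least 0.983 for every other library of the series. Replicate 3 at 24 h correlated more with other groups (0.971) than with its own (0.937). It had Suz12 at 210 CPM and Tbx3 at 109 CPM, where replicates 1 and 2 had 105 and 93.2 CPM of Suz12 and 49.2 and 39.1 CPM of Tbx3. Results at 24 h are therefore also given from their own groups alone and with replicate 3 as the only 24 h library. The 10 pluripotent stem cell markers listed, Pou5f1, Sox2 and Nanog among them, had reads in every group, and their summed level was 4623 to 17986 CPM over all libraries.

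The members had 0 to 1844 counts in all per group of 3 libraries. A filter on low counts left 6 members to test in the rescue panel (all but Tbx2 and Tbx6), 6 in the RBBP5 dataset with SUV2 (the same 6), 7 in that with SD2 (all but Tbx5), 6 in the degron dataset (all but Tbx1 and Tbx6) and 6 in the HP1a dataset (all but Tbx2 and Tbx5). In what follows, CPM are per library in the order of replicates 1, 2 and 3, a ± after a mean CPM is the SD of 3 libraries, and log2 changes carry their standard error after ±. Adjusted p-values come from edgeR's quasi-likelihood F test, two-sided, with Benjamini-Hochberg adjustment over all genes tested in a dataset, and a change was called below 0.05. For many changes in which a group had fewer than 30 counts in all, the 95% counting interval of the log2 ratio is given. It is exact binomial and covers counting error only. A change without an interval can also rest on so few counts. The libraries are bulk RNA, in which more cells of a type and more RNA per cell cannot be told apart.

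The first comparison asks which T-box genes depend on SUZ12. In the rescue panel, 5 of the 6 members tested were higher in Suz12 knockout than in wild-type cells and none was lower, in a comparison in which 23.8% of all genes tested were higher and 23.2% lower. Tbx15, a gene of limb and trunk skeleton development, had 8.27, 8.25 and 8.7 CPM in knockout cells, against 1.33, 0.598 and 2.11 CPM in wild-type cells. All 3 knockout libraries lay above all 3 wild-type ones, and the log2 change was 2.68 ± 0.22 (adjusted p = 3.5e-10). Tbx18, a gene of the sinus node, epicardium and ureter, had 3.72, 2.23 and 3.22 CPM in knockout cells, against 0.331, 0.0996 and 0.82 CPM in wild-type cells, and the groups did not overlap. Its log2 change was 2.94 ± 0.41 (adjusted p = 1.71e-06), on 97 counts against 11, with a counting interval of 2.04 to 3.99.

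Tbx1, the pharyngeal arch gene known from DiGeorge syndrome, had 0.837, 0.679 and 0.852 CPM in knockout cells, against 0.221, 0.299 and 0.234 CPM in wild-type cells. It was higher by 1.64 ± 0.48 (adjusted p = 0.0104) on the log2 scale, on 25 counts against 7 (counting interval 0.39 to 3.09). Tbx20, a heart gene, had 7.07, 7.08 and 7.47 CPM in knockout cells, against 4.09, 4.68 and 5.62 CPM in wild-type cells: the groups did not overlap but lay close, and the log2 change was 0.59 ± 0.23 (adjusted p = 0.0332). This call was lost without wild-type replicate 1 (0.49, adjusted p = 0.126) or 2 (0.57, adjusted p = 0.0812) and without knockout replicate 1 (0.61, adjusted p = 0.0561), 2 (0.60, adjusted p = 0.0572) or 3 (0.56, adjusted p = 0.077).

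Tbx5, which directs heart and forelimb formation, had 0.279, 0.582 and 0.473 CPM in knockout cells, against no read in any of the 3 libraries of wild-type cells. Against a floor of 3 counts over the wild-type group, this is at least 4.08-fold higher in the knockout (adjusted p = 0.000442). With no read in wild-type cells, the test could only find Tbx5 higher. Tbx4, the hindlimb counterpart of Tbx5, had 0.93, 1.16 and 0.946 CPM in knockout cells, against 0.552, 0.897 and 0.117 CPM in wild-type cells. The 3 knockout libraries of Tbx4 lay above the wild-type ones, with a log2 change of 0.90 ± 0.48 (adjusted p = 0.125), which passed the threshold only without wild-type replicate 2, at 1.57 (adjusted p = 0.0348). Tbx2, which encodes a repressor of the developing heart and limb, had 6 counts in the knockout and 8 in wild-type cells, and Tbx6, a gene of presomitic mesoderm, had 5 and 9. Both were below the filter and were not tested.

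Markers of other cell types moved in the same libraries. In the knockout, fibroblast or feeder markers summed to 23.9 to 32.3 CPM, against 3.53 to 4.1 CPM in wild-type cells, with 5 of 5 tested higher and 0 lower, and Lum and Twist2 at 0 in wild-type cells. Primitive endoderm markers had 1089 to 2027 CPM, against 235 to 285 CPM in wild-type cells, with 10 of 10 tested higher and 0 lower. Nascent and paraxial mesoderm markers had 465 to 550 CPM, against 234 to 259 CPM in wild-type cells, with 4 of 8 tested higher and 1 lower, and Msgn1 at 0 in wild-type cells. Cardiomyocyte markers had 39.6 to 47.5 CPM, against 20.5 to 26.2 CPM in wild-type cells, with 3 of 8 tested higher and 1 lower, and Actc1 and Nppa at 0 in the knockout, and Nppa in wild-type cells. Trophoblast markers had 78.9 to 108 CPM, against 80.6 to 89.5 CPM in wild-type cells, with 6 of 8 tested higher and 1 lower, and Elf5 and Plac1 at 0 in wild-type cells. Here and beside each comparison below, the part of these markers in the T-box values was not tested.

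**Figure D1:**
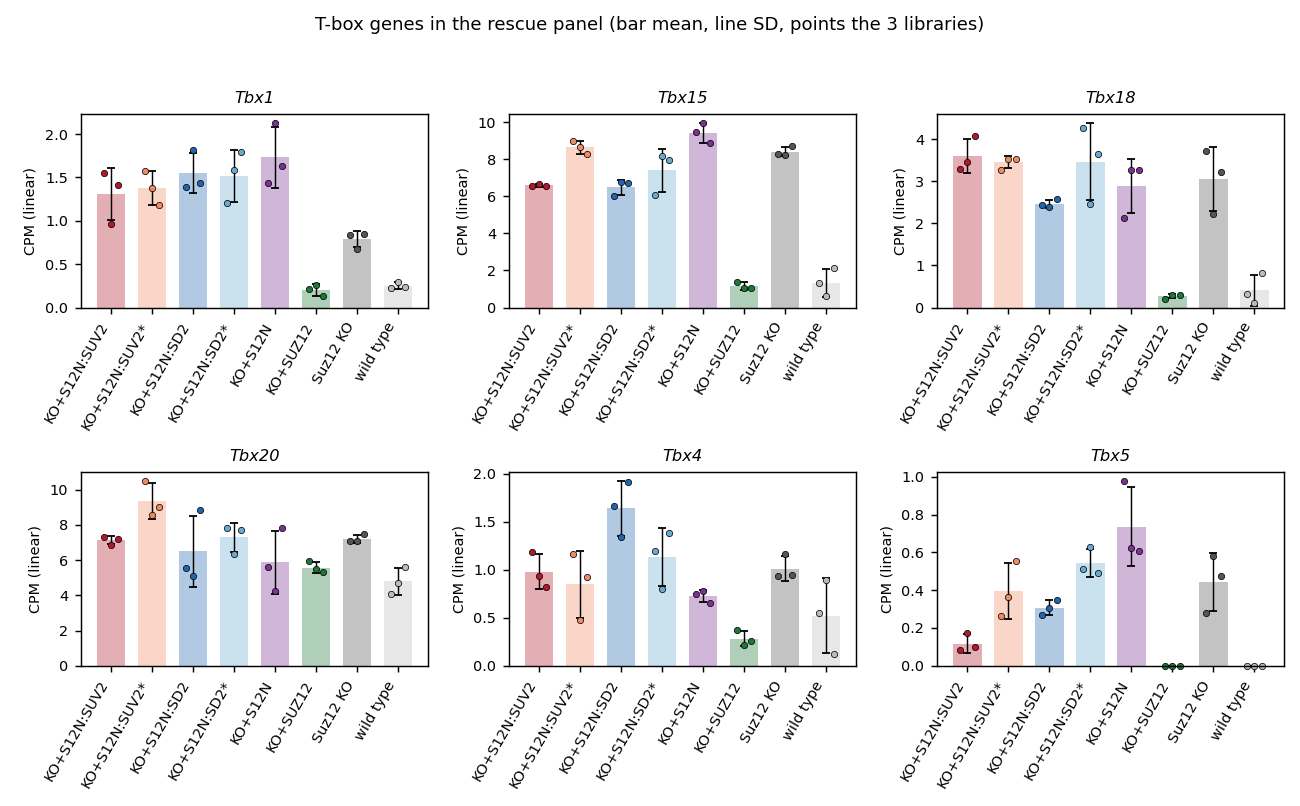
Levels of the 6 T-box genes tested in the rescue panel, in CPM on a linear axis from 0, one panel per gene; bars are means, lines SDs and points the 3 libraries of each group. Tbx15 and Tbx18 are high in the knockout and in every S12N group and low in knockout with SUZ12 and in wild-type cells, while Tbx20 lies between 4.8 and 9.36 CPM on average in all 8 groups.

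Returning wild-type SUZ12 to the knockout lowered 5 of the 6 members tested and raised none, where 24.2% of all genes were lower and 24.4% higher. Tbx15 had 1.39, 1.04 and 1.03 CPM in knockout cells with SUZ12, against 8.27, 8.25 and 8.7 CPM in the knockout, a log2 change of -2.88 ± 0.19 (adjusted p = 3.6e-12). Tbx18 had 0.214, 0.304 and 0.299 CPM with SUZ12, against 3.72, 2.23 and 3.22 CPM in the knockout, at -3.47 ± 0.35 (adjusted p = 9.52e-09). Tbx1 (13 counts with SUZ12, 25 in the knockout) and Tbx4 (18 and 32) fell, at log2 changes of -1.98 ± 0.41 (adjusted p = 0.000284) and -1.87 ± 0.45 (adjusted p = 0.00139), with counting intervals of -3.08 to -0.96 and -2.79 to -1.0. None of these groups overlapped. Tbx5 had no read in any of the 3 libraries of knockout cells with SUZ12, at least 9.61-fold lower than in the knockout (adjusted p = 1.76e-05). With no read there, the test could only find Tbx5 lower. Tbx20 was the exception, with 5.94, 5.51 and 5.31 CPM with SUZ12, against 7.07, 7.08 and 7.47 CPM in the knockout. The groups did not overlap, but the log2 change of -0.37 ± 0.20 did not pass (adjusted p = 0.124). With SUZ12, primitive endoderm markers summed to 284 to 332 CPM, against 1089 to 2027 CPM in the knockout, with 0 of 10 tested higher and 10 lower. Fibroblast or feeder markers had 4.11 to 5.99 CPM, against 23.9 to 32.3 CPM in the knockout, with 0 of 5 tested higher and 5 lower. Nascent and paraxial mesoderm markers had 303 to 345 CPM, against 465 to 550 CPM in the knockout. Cardiomyocyte markers had 21.8 to 24.7 CPM, against 39.6 to 47.5 CPM. Trophoblast markers went the other way, at 153 to 218 CPM with SUZ12, against 78.9 to 108 CPM in the knockout.

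Set against wild-type cells, knockout cells with SUZ12 had no member called in either direction, with edgeR or with DESeq2, and none at an unadjusted p under 0.05. Over all genes 5.67% were called higher and 4.73% lower. The libraries of both groups overlapped for Tbx1, Tbx4, Tbx15, Tbx18 and Tbx20. For Tbx15 the log2 difference was -0.20 ± 0.29 (adjusted p = 0.737), with 1.33, 0.598 and 2.11 CPM in wild-type cells spanning all 3 values of the cells with SUZ12. Tbx4 differed by -0.96 ± 0.55 (adjusted p = 0.298) and Tbx18 by -0.53 ± 0.59 (adjusted p = 0.642), on 18 counts or fewer in each group, with counting intervals of -2.05 to 0.12 and -1.69 to 0.70. Tbx5 had no read in the 6 libraries of both groups. Trophoblast markers summed to 153 to 218 CPM with SUZ12, against 80.6 to 89.5 CPM in wild-type cells. Nascent and paraxial mesoderm markers had 303 to 345 CPM, against 234 to 259 CPM, and fibroblast or feeder markers 4.11 to 5.99 CPM, against 3.53 to 4.1 CPM. Primitive endoderm markers (284 to 332 and 235 to 285 CPM) and cardiomyocyte markers (21.8 to 24.7 and 20.5 to 26.2 CPM) overlapped.

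S12N alone, expressed in the knockout, left Tbx15, Tbx18 and Tbx20 without a call: Tbx15 had 9.45, 9.95 and 8.87 CPM with S12N, against 8.27, 8.25 and 8.7 CPM in the knockout, without overlap. Its log2 change was 0.16 ± 0.15 (adjusted p = 0.623). Tbx18 stood at -0.09 ± 0.24 (adjusted p = 0.903) and Tbx20 at -0.28 ± 0.20 (adjusted p = 0.491), with overlapping libraries. Only Tbx1 was called, higher with S12N (1.44, 2.13 and 1.63 CPM) than in the knockout (0.837, 0.679 and 0.852 CPM), at 1.13 ± 0.29 (adjusted p = 0.0246) on 107 counts against 25 (counting interval 0.48 to 1.81), where 1.9% of all genes were called higher. This call was lost without S12N replicate 2 (0.96, adjusted p = 0.0848), without knockout replicate 1 (1.17, adjusted p = 0.0725), 2 (1.03, adjusted p = 0.0902) or 3 (1.19, adjusted p = 0.0669), with DESeq2 (1.12, adjusted p = 0.058) and in a fit to these 2 groups alone (1.14, adjusted p = 0.132). Tbx5 had 0.978, 0.622 and 0.607 CPM with S12N, against 0.279, 0.582 and 0.473 CPM in the knockout: the groups did not overlap, and the change of 0.74 ± 0.40 (adjusted p = 0.362) did not pass. With S12N, primitive endoderm markers summed to 670 to 1264 CPM, against 1089 to 2027 CPM in the knockout, with 0 of 10 tested higher and 3 lower. The sum of fibroblast or feeder markers was 22.3 to 24.7 CPM, against 23.9 to 32.3 CPM in the knockout, with 0 of 5 tested higher and 1 lower, and Dcn and Postn at 0 with S12N.

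The active S12N:SUV2 fusion was set against its dead form, S12N:SUV2*. Tbx5 and Tbx15 were lower with the active fusion and no member was higher, where 12.8% of all genes were lower and 9.82% higher. Tbx5 had 0.0816, 0.172 and 0.0969 CPM with S12N:SUV2, against 0.261, 0.363 and 0.554 CPM with S12N:SUV2*, at -1.70 ± 0.46 (adjusted p = 0.0102) on 9 counts against 32 (counting interval -2.95 to -0.59). This call was lost without S12N:SUV2* replicate 3 (-1.37, adjusted p = 0.0848) or S12N:SUV2 replicate 1 (-1.48, adjusted p = 0.0528). Tbx15 had 6.56, 6.69 and 6.54 CPM with S12N:SUV2, against 8.99, 8.67 and 8.27 CPM with S12N:SUV2*, at -0.39 ± 0.14 (adjusted p = 0.041). The groups did not overlap, but leaving out any 1 of the 6 libraries ended the call, at adjusted p-values of 0.0676 to 0.115 and log2 changes of -0.42 to -0.36. With no filter on low counts it was also lost (-0.39, adjusted p = 0.068).

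Tbx20 had 7.34, 6.86 and 7.22 CPM with S12N:SUV2, against 10.5, 8.57 and 9.04 CPM with S12N:SUV2*, again without overlap, at -0.39 ± 0.17 (adjusted p = 0.0971), and passed in a fit to these 2 groups alone (-0.39, adjusted p = 0.00414). Tbx18 had 3.61 ± 0.408 CPM with S12N:SUV2, against 3.45 ± 0.144 CPM with S12N:SUV2*, and differed by 0.06 ± 0.20 (adjusted p = 0.876). Tbx1 and Tbx4 also overlapped between these groups. With S12N:SUV2, primitive endoderm markers summed to 532 to 598 CPM, against 1549 to 2047 CPM with S12N:SUV2*, with 0 of 10 tested higher and 9 lower. The fibroblast or feeder markers summed to 9.16 to 12.1 CPM, against 21 to 22.9 CPM with S12N:SUV2*, with 0 of 5 tested higher and 4 lower, and Postn at 0 with S12N:SUV2. The sum of cardiomyocyte markers was 29.2 to 31.4 CPM, against 33.7 to 36.4 CPM with S12N:SUV2*, with 0 of 8 tested higher and 3 lower, and Nppa at 0 with S12N:SUV2. The dead form itself was set against S12N alone. Tbx20 was higher with S12N:SUV2* (10.5, 8.57 and 9.04 CPM) than with S12N (5.63, 4.25 and 7.8 CPM), at 0.66 ± 0.17 (adjusted p = 0.00802), where 12% of all genes were higher. Leaving out S12N replicate 2, the lowest library, ended that call (0.48, adjusted p = 0.0576). With S12N:SUV2*, primitive endoderm markers summed to 1549 to 2047 CPM, against 670 to 1264 CPM with S12N, with 10 of 10 tested higher and 0 lower. The cardiomyocyte markers summed to 33.7 to 36.4 CPM, against 47.1 to 50.1 CPM with S12N, with 0 of 8 tested higher and 2 lower, and Actc1 at 0 with S12N. Tbx5 was at -0.91 ± 0.33 (adjusted p = 0.0534) in that comparison and passed without S12N:SUV2* replicate 3 (-1.24, adjusted p = 0.0287).

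The S12N:SD2 fusion moved no member past the threshold against S12N:SD2*, with edgeR or DESeq2, where 8% of all genes were higher and 10% lower. At an unadjusted p under 0.05 there were 2 members, Tbx5 and Tbx18. Tbx5 had 0.27, 0.303 and 0.348 CPM with S12N:SD2, against 0.514, 0.627 and 0.491 CPM with S12N:SD2*, without overlap. The log2 change was -0.83 ± 0.38 (adjusted p = 0.13) on 21 counts against 35 (counting interval -1.69 to -0.01). Tbx18 had 2.43, 2.38 and 2.57 CPM with S12N:SD2, against 4.28, 2.47 and 3.66 CPM with S12N:SD2*, at -0.48 ± 0.22 (adjusted p = 0.128), and passed only without S12N:SD2* replicate 2, its lowest library (-0.69, adjusted p = 0.0479). S12N:SD2* against S12N alone also gave no call with either tool and 1 member, Tbx15, at an unadjusted p under 0.05 (-0.34 ± 0.14, adjusted p = 0.107), where 6.97% of all genes were higher and 6.11% lower.

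Set directly against each other, S12N:SUV2 had lower Tbx4 and Tbx5 and higher Tbx18 than S12N:SD2, where 21.7% of all genes were lower and 21.6% higher. Tbx4 had 1.18, 0.931 and 0.824 CPM with S12N:SUV2, against 1.66, 1.34 and 1.91 CPM with S12N:SD2, at -0.74 ± 0.29 (adjusted p = 0.0395), without overlap. Tbx5 had 9 counts with S12N:SUV2 and 21 with S12N:SD2, at -1.35 ± 0.50 (adjusted p = 0.0361, counting interval -2.65 to -0.15), and Tbx18 stood at 0.55 ± 0.21 (adjusted p = 0.0415). None of the 3 calls held when each library was left out in turn. Tbx18 was lost without any 1 of the 6 libraries, at adjusted p-values of 0.0511 to 0.149 and log2 changes of 0.45 to 0.60. Tbx4 was lost without S12N:SUV2 replicate 2 (-0.70, adjusted p = 0.107) or 3 (-0.65, adjusted p = 0.117) and S12N:SD2 replicate 1 (-0.73, adjusted p = 0.0836) or 3 (-0.61, adjusted p = 0.145). Tbx5 was lost without S12N:SUV2 replicate 1 (-1.13, adjusted p = 0.123) or 3 (-1.24, adjusted p = 0.087) and S12N:SD2 replicate 2 (-1.36, adjusted p = 0.0647) or 3 (-1.25, adjusted p = 0.1). With DESeq2, Tbx4 (-0.75, adjusted p = 0.0593) and Tbx5 (-1.36, adjusted p = 0.0939) were lost, as they were with no filter (-0.73, adjusted p = 0.0504 and -1.34 (adjusted p = 0.112)). With S12N:SUV2, cardiomyocyte markers summed to 29.2 to 31.4 CPM, against 52.8 to 56 CPM with S12N:SD2, with 0 of 8 tested higher and 6 lower, and Nppa at 0 in both. In these libraries, fibroblast or feeder markers had 9.16 to 12.1 CPM, against 24.6 to 26.5 CPM with S12N:SD2, with 0 of 5 tested higher and 3 lower, and Postn at 0 with S12N:SUV2. The sum of trophoblast markers was 106 to 115 CPM, against 70 to 77 CPM with S12N:SD2, with 7 of 8 tested higher and 1 lower. The sum of primitive endoderm markers was 532 to 598 CPM, against 652 to 765 CPM with S12N:SD2, with 2 of 10 tested higher and 5 lower.

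Against knockout cells with wild-type SUZ12, cells with S12N:SUV2 had 5 of 6 members higher and none lower, where 24% of all genes were higher. Tbx18 had 3.3, 3.45 and 4.07 CPM with S12N:SUV2, against 0.214, 0.304 and 0.299 CPM with SUZ12, at 3.70 ± 0.32 (adjusted p = 4.62e-10). Tbx1 differed by 2.69 ± 0.33 (adjusted p = 1.82e-07), Tbx15 by 2.53 ± 0.18 (adjusted p = 2.09e-11) and Tbx4 by 1.83 ± 0.40 (adjusted p = 0.000453), and Tbx5 was at least 2.63-fold higher with S12N:SUV2 (adjusted p = 0.00279). With no Tbx5 read in the cells with SUZ12, its test could only find it higher. Tbx20 was at 0.36 ± 0.18 (adjusted p = 0.105) and passed only in a fit to these 2 groups alone (0.36, adjusted p = 0.0181). In the cells with S12N:SUV2, primitive endoderm markers summed to 532 to 598 CPM, against 284 to 332 CPM with SUZ12, with 7 of 10 tested higher and 0 lower. For fibroblast or feeder markers the sum was 9.16 to 12.1 CPM, against 4.11 to 5.99 CPM with SUZ12, with 2 of 5 tested higher and 0 lower, and Postn at 0 in the cells with S12N:SUV2. Trophoblast markers went the other way, at 106 to 115 CPM with S12N:SUV2, against 153 to 218 CPM with SUZ12. For Tbx15, the order of the 8 groups by mean level was S12N, S12N:SUV2*, knockout, S12N:SD2*, S12N:SUV2, S12N:SD2, wild type and knockout with SUZ12. Adjacent groups overlapped except between knockout and S12N:SD2* and between S12N:SD2 and wild type. For Tbx18 the only gap without overlap in its order was between S12N:SD2, at 2.46 ± 0.0954 CPM, and wild type, at 0.417 ± 0.368 CPM.

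The RBBP5 datasets asked how the same genes behave when RBBP5 is lost as well. In the dataset with SUV2 and DMSO, all 6 members tested were higher in RBBP5-FKBP cells with a Suz12 knockout than in the parental RBBP5-FKBP line, where 36.9% of all genes were higher. Tbx20 had 23.2, 23.7 and 24.4 CPM in the knockout line, against 2.79, 3.41 and 2.32 CPM in the parental line, a log2 change of 3.06 ± 0.10 (adjusted p = 9.56e-23). Tbx15 had 9.78, 9.1 and 8.76 CPM in the knockout line, against 0.299, 0.31 and 0.324 CPM in the parental line, at 4.89 ± 0.18 (adjusted p = 1.36e-21) on 588 counts against 18 (counting interval 4.22 to 5.66). Tbx18 had 8.86, 9.24 and 8.91 CPM in the knockout line, against 0.15, 0.155 and 0.0541 CPM in the parental line, at 6.22 ± 0.23 (adjusted p = 1.63e-21) on 574 counts against 7 (counting interval 5.17 to 7.54). These 3 genes had no overlap between the lines, nor had Tbx4, at 2.61 ± 0.28 (adjusted p = 6.91e-10). Tbx1 had 56 counts in the knockout line and 1 in the parental line, a log2 ratio of 5.67 (counting interval 3.13 to 11, adjusted p = 3.25e-08). Tbx5 had 42 counts against none, at least 12.7-fold higher (adjusted p = 3.37e-07). With no read in the parental line, the test could only find Tbx5 higher. With 1 count there, it could hardly find Tbx1 lower. In the knockout line, primitive endoderm markers summed to 1574 to 1718 CPM, against 171 to 193 CPM in the parental line, with 10 of 10 tested higher and 0 lower. Fibroblast or feeder markers had 21.4 to 24.1 CPM, against 3.79 to 4.18 CPM in the parental line, with 5 of 5 tested higher and 0 lower, and Col3a1, Dcn and Postn at 0 in the parental line. The trophoblast markers summed to 212 to 233 CPM, against 140 to 142 CPM in the parental line, with 9 of 10 tested higher and 1 lower.

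In this knockout line 4 of the 6 members were lower with S12N:SUV2 than without it, where 25.4% of all genes were lower. The dataset holds no line with S12N alone or with a dead fusion. The fusion therefore cannot be told apart from S12N or from the derived line. Tbx18 had 3.11, 3.99 and 3.68 CPM with S12N:SUV2, against 8.86, 9.24 and 8.91 CPM without it, at -1.33 ± 0.11 (adjusted p = 1.07e-11). Tbx20 had 13, 13.3 and 13.7 CPM with S12N:SUV2, against 23.2, 23.7 and 24.4 CPM without it, at -0.83 ± 0.07 (adjusted p = 3.06e-11). Tbx15 had 5.15, 6.5 and 5.92 CPM with S12N:SUV2, against 9.78, 9.1 and 8.76 CPM without it, at -0.65 ± 0.09 (adjusted p = 7.35e-07). Tbx5 fell too, at -1.57 ± 0.44 (adjusted p = 0.00425) on 13 counts against 42 (counting interval -2.60 to -0.65). DESeq2 gave -1.59 (adjusted p = 0.0543). None of these 4 overlapped between the groups, whereas Tbx1, at -0.02 ± 0.30 (adjusted p = 0.974), and Tbx4, at -0.17 ± 0.19 (adjusted p = 0.496), did. The fall did not reach the level of the parental line: with S12N:SUV2 all 6 members were still higher than in the parental line (all genes, 32.1%), Tbx15 by 4.24 ± 0.20 (adjusted p = 1.86e-18) and Tbx18 by 4.89 ± 0.29 (adjusted p = 7.77e-16). Tbx5 and Tbx1, with no read or 1 count in the parental line, could hardly have been found lower. With S12N:SUV2 under DMSO, primitive endoderm markers summed to 406 to 450 CPM, against 1574 to 1718 CPM without it, with 0 of 10 tested higher and 10 lower. The sum of fibroblast or feeder markers was 12.3 to 14.6 CPM, against 21.4 to 24.1 CPM without it, with 0 of 5 tested higher and 5 lower, and Postn at 0 with S12N:SUV2 under DMSO. In these libraries, trophoblast markers had 145 to 150 CPM, against 212 to 233 CPM without it, with 1 of 10 tested higher and 7 lower. Cardiomyocyte markers had 11.6 to 14.4 CPM, against 16.9 to 17.7 CPM without it. Nascent and paraxial mesoderm markers went the other way, at 173 to 188 CPM with S12N:SUV2, against 108 to 120 CPM without it. In the rescue panel, means with S12N:SUV2 and in the knockout were 3.61 and 3.06 CPM for Tbx18 and 7.14 and 7.21 CPM for Tbx20. They were 6.6 and 8.41 CPM for Tbx15 and 0.117 and 0.445 CPM for Tbx5. That pair of panel groups was not tested.

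With dTAG13 in both lines, Tbx15, Tbx18 and Tbx20 were again lower with S12N:SUV2 than without it, where 23.5% of all genes were lower. Their log2 changes were -1.08 ± 0.11 (adjusted p = 1.34e-09), -1.12 ± 0.10 (adjusted p = 5.41e-11) and -1.14 ± 0.07 (adjusted p = 6.5e-15). Tbx5, down to 5 counts with S12N:SUV2 and 11 without it, was at -1.11 ± 0.76 (adjusted p = 0.246, counting interval -2.99 to 0.53). With S12N:SUV2 under dTAG13, primitive endoderm markers summed to 414 to 442 CPM, against 1685 to 1731 CPM without it, with 0 of 10 tested higher and 10 lower. For trophoblast markers the sum was 110 to 112 CPM, against 216 to 222 CPM without it, with 0 of 10 tested higher and 10 lower. Nascent and paraxial mesoderm markers went the other way, at 119 to 128 CPM with S12N:SUV2, against 101 to 106 CPM without it. dTAG13 itself split the members of the knockout line into 4 that fell and 2 that rose, where 25.1% of all genes were lower and 23.2% higher. Tbx4 had 0.941, 0.496 and 0.7 CPM with dTAG13, against 1.84, 1.98 and 1.88 CPM with DMSO, at -1.42 ± 0.23 (adjusted p = 4.59e-06). Tbx15 had 6.74, 6.65 and 6.82 CPM with dTAG13, against 9.78, 9.1 and 8.76 CPM with DMSO, at -0.45 ± 0.09 (adjusted p = 0.000103). Tbx5 fell at -1.92 ± 0.46 (adjusted p = 0.00103) on 11 counts against 42 (counting interval -3.03 to -0.94), and Tbx1 at -1.09 ± 0.35 (adjusted p = 0.00987) on 26 against 56 (counting interval -1.83 to -0.40). The Tbx1 call was lost with DESeq2 (-1.09, adjusted p = 0.0615) and without dTAG13 replicate 3 (-0.90, adjusted p = 0.0597).

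Tbx20 rose with dTAG13 in the knockout line, to 31, 26.5 and 30 CPM, against 23.2, 23.7 and 24.4 CPM with DMSO, at 0.29 ± 0.06 (adjusted p = 0.000203). Tbx18 had 11.6, 9.92 and 9.97 CPM with dTAG13, against 8.86, 9.24 and 8.91 CPM with DMSO, at 0.22 ± 0.09 (adjusted p = 0.0402). That Tbx18 call was lost with DESeq2 (0.21, adjusted p = 0.196), with no filter on low counts (0.21, adjusted p = 0.123), without DMSO replicate 1 (0.20, adjusted p = 0.102), 2 (0.24, adjusted p = 0.0607) or 3 (0.21, adjusted p = 0.0907) and without dTAG13 replicate 1 (0.14, adjusted p = 0.237). In the knockout line with dTAG13, fibroblast or feeder markers summed to 14.6 to 15.1 CPM, against 21.4 to 24.1 CPM with DMSO, with 1 of 5 tested higher and 2 lower, and Postn at 0 in the knockout line with dTAG13. In these libraries, cardiomyocyte markers had 12.3 to 13.6 CPM, against 16.9 to 17.7 CPM with DMSO, with 0 of 6 tested higher and 3 lower, and Nppa at 0 with DMSO. The sum of nascent and paraxial mesoderm markers was 101 to 106 CPM, against 108 to 120 CPM with DMSO, with 1 of 7 tested higher and 3 lower. Trophoblast markers had 216 to 222 CPM, against 212 to 233 CPM with DMSO, with 2 of 10 tested higher and 5 lower. The primitive endoderm markers summed to 1685 to 1731 CPM, against 1574 to 1718 CPM with DMSO, with 2 of 10 tested higher and 1 lower. In cells with S12N:SUV2, dTAG13 lowered Tbx1, Tbx4 and Tbx15 and raised Tbx18, where 27% of all genes were lower and 25.9% higher. Tbx18 had 4.86, 4.58 and 5.04 CPM with dTAG13, against 3.11, 3.99 and 3.68 CPM with DMSO, at 0.43 ± 0.12 (adjusted p = 0.00445), and Tbx15 had 3.27, 3.23 and 3.07 CPM, against 5.15, 6.5 and 5.92 CPM, at -0.88 ± 0.12 (adjusted p = 1.35e-07). Tbx4 fell, at -1.35 ± 0.24 (adjusted p = 1.58e-05), as did Tbx1, at -1.17 ± 0.36 (adjusted p = 0.00706). The Tbx1 call was lost without dTAG13 replicate 3 (-0.81, adjusted p = 0.07). Tbx5, with 5 counts with dTAG13 and 13 with DMSO, was at -1.46 ± 0.73 (adjusted p = 0.097) and passed without dTAG13 replicate 1 (-2.25, adjusted p = 0.0478), and Tbx20 was at -0.02 ± 0.08 (adjusted p = 0.867). In these cells with dTAG13, fibroblast or feeder markers summed to 6.78 to 8.44 CPM, against 12.3 to 14.6 CPM with DMSO, with 0 of 5 tested higher and 2 lower, and Postn at 0 in both. The nascent and paraxial mesoderm markers summed to 119 to 128 CPM, against 173 to 188 CPM with DMSO, with 2 of 7 tested higher and 3 lower, and Msgn1 at 0 in these cells with dTAG13. The sum of trophoblast markers was 110 to 112 CPM, against 145 to 150 CPM with DMSO, with 0 of 10 tested higher and 5 lower. For cardiomyocyte markers the sum was 9.16 to 11.9 CPM, against 11.6 to 14.4 CPM with DMSO, with 1 of 6 tested higher and 3 lower, and Nppa at 0 with DMSO. In these libraries, primitive endoderm markers had 414 to 442 CPM, against 406 to 450 CPM with DMSO, with 3 of 10 tested higher and 1 lower.

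In the parental line dTAG13 lowered Tbx4 alone, to 0.0499, 0.0508 and 0.15 CPM, against 0.299, 0.31 and 0.324 CPM with DMSO, where 26.2% of all genes were lower. The change was -1.89 ± 0.58 (adjusted p = 0.0101) on 5 counts against 18 (counting interval -3.68 to -0.41), and it did not pass without dTAG13 replicate 1 (-1.62, adjusted p = 0.0502). Tbx20 was at -0.30 ± 0.17 (adjusted p = 0.137) and passed without DMSO replicate 3 (-0.42, adjusted p = 0.0499) or dTAG13 replicate 3 (-0.48, adjusted p = 0.0338). In the parental line with dTAG13, nascent and paraxial mesoderm markers summed to 74.8 to 78.3 CPM, against 117 to 130 CPM with DMSO, with 1 of 7 tested higher and 3 lower, and Msgn1 at 0 in both. The trophoblast markers summed to 90.7 to 94.8 CPM, against 140 to 142 CPM with DMSO, with 1 of 10 tested higher and 4 lower, and Plac1 at 0 in the parental line with dTAG13. Primitive endoderm markers went the other way, at 211 to 243 CPM with dTAG13, against 171 to 193 CPM with DMSO. The response to dTAG13 was then compared between lines. For Tbx20 it was higher in the knockout line than in the parental line by 0.60 ± 0.18 (adjusted p = 0.0169), the only member called, where 10.7% of all genes were called in that direction and 8.83% in the other. The call was lost without parental DMSO replicate 2 (0.45, adjusted p = 0.124) and without parental dTAG13 replicate 1 (0.50, adjusted p = 0.0749) or 2 (0.53, adjusted p = 0.0566). The Tbx20 response was lower in cells with S12N:SUV2 than in the knockout line, at -0.31 ± 0.10 (adjusted p = 0.0426), where 5.65% of all genes were called lower and 5.07% higher. When left out in turn, 10 of the 12 single libraries ended that call, at log2 differences of -0.34 to -0.27 and adjusted p-values of 0.0539 to 0.107. It was also lost with DESeq2 (-0.31, adjusted p = 0.101) and with no filter (-0.30, adjusted p = 0.0562). For Tbx4, whose response was -1.42 ± 0.23 in the knockout line and -1.89 ± 0.58 in the parental line, the difference was 0.48 ± 0.67 (adjusted p = 0.717). For Tbx15 the difference between cells with S12N:SUV2 and the knockout line was -0.42 ± 0.15 (adjusted p = 0.0615), and it passed without S12N:SUV2 DMSO replicate 1 (-0.51, adjusted p = 0.0296) or knockout DMSO replicate 1 (-0.48, adjusted p = 0.0495).

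**Figure D2:**
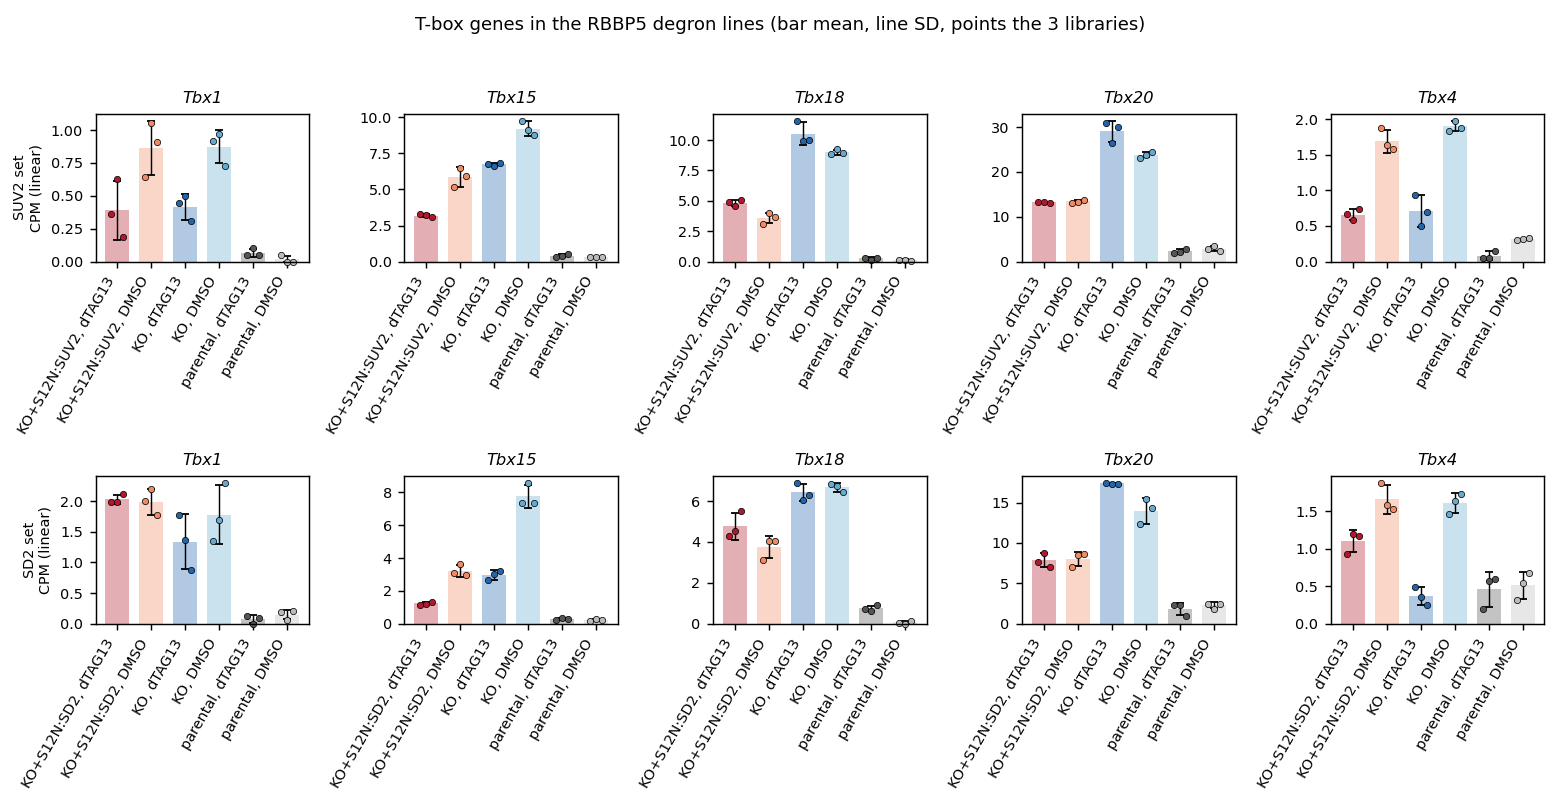
Levels of T-box genes in both RBBP5 datasets, in CPM on linear axes from 0; bars are means, lines SDs and points the 3 libraries of each group. In the dataset with SUV2, Tbx20 averages 29.1 CPM in the knockout line with dTAG13 and 23.8 CPM with DMSO, and in the dataset with SD2 Tbx15 averages 2.96 CPM with dTAG13 and 7.76 CPM with DMSO.

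In the dataset with SD2, 5 of the 7 members tested were higher in the knockout line than in the parental line under DMSO, where 31.8% of all genes were higher. Tbx18 had 6.86, 6.75 and 6.44 CPM in the knockout line, against 0.0624, 0 and 0.135 CPM in the parental line, on 350 counts against 3. The log2 ratio of 6.72 had a counting interval of 5.16 to 9.0 (adjusted p = 6.82e-12). With 3 counts in the parental line, the test could hardly find Tbx18 lower. Tbx15 had 7.34, 8.58 and 7.36 CPM in the knockout line, against 0.187, 0.304 and 0.203 CPM in the parental line, at 5.06 ± 0.20 (adjusted p = 5.79e-13) on 405 counts against 11 (counting interval 4.20 to 6.07). Tbx20 had 12.3, 15.5 and 14.3 CPM in the knockout line, against 2.5, 1.88 and 2.5 CPM in the parental line, at 2.61 ± 0.17 (adjusted p = 6.76e-10). The lines did not overlap for these 3 genes, nor for Tbx1, at 3.59 ± 0.43 (adjusted p = 1.32e-06) on 93 counts against 7 (counting interval 2.49 to 4.94), or Tbx4, at 1.66 ± 0.29 (adjusted p = 0.000106) on 84 against 24 (counting interval 0.99 to 2.38). Tbx2 at 0.97 ± 0.58 (adjusted p = 0.16) and Tbx6 at -0.60 ± 0.36 (adjusted p = 0.195) overlapped between the lines. Tbx5, below the filter, had 16 counts in the knockout line and none in the parental line, at least 4.82-fold higher with no test. In this knockout line, primitive endoderm markers summed to 5706 to 5994 CPM, against 220 to 238 CPM in the parental line, with 10 of 10 tested higher and 0 lower. In these libraries, trophoblast markers had 236 to 247 CPM, against 80.8 to 89.4 CPM in the parental line, with 7 of 8 tested higher and 1 lower, and Plac1 at 0 in the parental line. The fibroblast or feeder markers summed to 21.9 to 22.2 CPM, against 2.84 to 4.43 CPM in the parental line, with 5 of 5 tested higher and 0 lower, and Postn at 0 in this knockout line, and Col3a1, Dcn, Lum and Postn in the parental line.

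In the knockout line Tbx15, Tbx18 and Tbx20 were lower with S12N:SD2 than without it, where 14.9% of all genes were lower. The other 4 members tested had no call. This dataset too holds no line with S12N alone or with a dead fusion. The fusion therefore cannot be told apart from S12N or from the derived line. Tbx15 had 3.08, 3.66 and 2.99 CPM with S12N:SD2, against 7.34, 8.58 and 7.36 CPM without it, at -1.25 ± 0.12 (adjusted p = 2.41e-07). Tbx18 had 3.14, 4.06 and 4.07 CPM with S12N:SD2, against 6.86, 6.75 and 6.44 CPM without it, at -0.83 ± 0.14 (adjusted p = 0.000183). Tbx20 had 7.07, 8.45 and 8.59 CPM with S12N:SD2, against 12.3, 15.5 and 14.3 CPM without it, at -0.80 ± 0.14 (adjusted p = 0.000272). The groups of all 3 genes stood clear of each other, while Tbx1 (0.17 ± 0.24, adjusted p = 0.683) and Tbx4 (0.05 ± 0.23, adjusted p = 0.908) overlapped. Levels stayed above those of the parental line: 5 of 7 members were higher with S12N:SD2 than there (all genes, 30.2%), Tbx15 by 3.81 ± 0.23 (adjusted p = 3.12e-10) and Tbx20 by 1.81 ± 0.18 (adjusted p = 2.34e-07). With S12N:SD2 under DMSO, primitive endoderm markers summed to 880 to 901 CPM, against 5706 to 5994 CPM without it, with 0 of 10 tested higher and 10 lower. For trophoblast markers the sum was 140 to 145 CPM, against 236 to 247 CPM without it, with 1 of 8 tested higher and 5 lower. In these libraries, fibroblast or feeder markers had 30.2 to 34.1 CPM, against 21.9 to 22.2 CPM without it, with 1 of 5 tested higher and 2 lower, and Dcn at 0 with S12N:SD2 under DMSO, and Postn without it.

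With dTAG13 in both lines, Tbx15 and Tbx20 were again lower with S12N:SD2, at -1.25 ± 0.16 (adjusted p = 1e-05) and -1.15 ± 0.14 (adjusted p = 4.58e-06), where 17.1% of all genes were lower and 16.9% higher. Tbx18 was lower at -0.43 ± 0.14 (adjusted p = 0.0227), a call lost without knockout-line replicate 1 (-0.38, adjusted p = 0.0849) and without S12N:SD2 replicate 1 (-0.38, adjusted p = 0.0721) or 2 (-0.42, adjusted p = 0.0562). Tbx4 was instead higher with S12N:SD2 (0.927, 1.2 and 1.17 CPM) than without it (0.492, 0.354 and 0.253 CPM), at 1.58 ± 0.34 (adjusted p = 0.00149) on 53 counts against 18 (counting interval 0.78 to 2.44). Tbx1 was at 0.59 ± 0.26 (adjusted p = 0.0914) and passed without knockout-line replicate 1 (0.85, adjusted p = 0.0376). With S12N:SD2 under dTAG13, primitive endoderm markers summed to 896 to 933 CPM, against 5975 to 6149 CPM without it, with 0 of 10 tested higher and 10 lower. Trophoblast markers had 95.4 to 98.5 CPM, against 168 to 174 CPM without it, with 1 of 8 tested higher and 5 lower. Fibroblast or feeder markers went the other way, at 16.6 to 18.4 CPM with S12N:SD2, against 11.9 to 12.3 CPM without it.

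dTAG13 lowered Tbx4 and Tbx15 in the knockout line, where 22.3% of all genes were lower. Tbx4 had 0.492, 0.354 and 0.253 CPM with dTAG13, against 1.46, 1.64 and 1.73 CPM with DMSO, at -2.13 ± 0.31 (adjusted p = 4.69e-05) on 18 counts against 84 (counting interval -2.95 to -1.38). Tbx15 had 2.64, 3.01 and 3.22 CPM with dTAG13, against 7.34, 8.58 and 7.36 CPM with DMSO, at -1.39 ± 0.12 (adjusted p = 1.34e-07). Neither gene overlapped between the treatments. With dTAG13 in the knockout line, fibroblast or feeder markers summed to 11.9 to 12.3 CPM, against 21.9 to 22.2 CPM with DMSO, with 0 of 5 tested higher and 3 lower, and Twist2 at 0 with dTAG13 in the knockout line, and Postn with DMSO. In these libraries, nascent and paraxial mesoderm markers had 117 to 124 CPM, against 174 to 179 CPM with DMSO, with 0 of 8 tested higher and 6 lower, and Msgn1 at 0 in both. The sum of trophoblast markers was 168 to 174 CPM, against 236 to 247 CPM with DMSO, with 1 of 8 tested higher and 5 lower. For primitive endoderm markers the sum was 5975 to 6149 CPM, against 5706 to 5994 CPM with DMSO, with 2 of 10 tested higher and 0 lower. Tbx20 had 17.4, 17.3 and 17.3 CPM with dTAG13, against 12.3, 15.5 and 14.3 CPM with DMSO, all 3 values above the highest one with DMSO. The change of 0.31 ± 0.13 (adjusted p = 0.0655) passed with DESeq2 (0.32, adjusted p = 0.0298) and in a fit to these 2 groups alone (0.33, adjusted p = 0.000545). Tbx18 was at -0.06 ± 0.13 (adjusted p = 0.763), with overlap. In cells with S12N:SD2, dTAG13 lowered Tbx15 alone among the 7 tested, to 1.17, 1.2 and 1.35 CPM, against 3.08, 3.66 and 2.99 CPM with DMSO, where 22.9% of all genes were lower. Its log2 change was -1.39 ± 0.16 (adjusted p = 3e-06). Tbx4 (-0.60 ± 0.25, adjusted p = 0.0615) and Tbx18 (0.35 ± 0.15, adjusted p = 0.069) did not overlap between these treatments and did not pass. With dTAG13 in these cells, fibroblast or feeder markers summed to 16.6 to 18.4 CPM, against 30.2 to 34.1 CPM with DMSO, with 0 of 5 tested higher and 2 lower, and Dcn at 0 with DMSO. For nascent and paraxial mesoderm markers the sum was 101 to 113 CPM, against 176 to 183 CPM with DMSO, with 1 of 8 tested higher and 5 lower, and Msgn1 at 0 in both. The trophoblast markers summed to 95.4 to 98.5 CPM, against 140 to 145 CPM with DMSO, with 0 of 8 tested higher and 5 lower. Primitive endoderm markers had 896 to 933 CPM, against 880 to 901 CPM with DMSO, with 1 of 10 tested higher and 2 lower.

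In the parental line dTAG13 raised Tbx18, to 0.715, 0.649 and 0.903 CPM, against 0.0624, 0 and 0.135 CPM with DMSO, where 21.6% of all genes were higher. On 29 counts against 3, the log2 ratio was 3.54 (counting interval 1.85 to 5.90, adjusted p = 7.12e-05). With 3 counts under DMSO, this test too could hardly find Tbx18 lower. No other member was called there; Tbx15 was at 0.40 ± 0.41 (adjusted p = 0.621) on 12 counts against 11. With dTAG13 in the parental line, primitive endoderm markers summed to 242 to 394 CPM, against 220 to 238 CPM with DMSO, with 4 of 10 tested higher and 1 lower. Nascent and paraxial mesoderm markers had 79.4 to 126 CPM, against 112 to 131 CPM with DMSO, with 2 of 8 tested higher and 4 lower, and Msgn1 at 0 in both. Cardiomyocyte markers had 14.8 to 16.6 CPM, against 20.9 to 24.7 CPM with DMSO, with 1 of 6 tested higher and 2 lower, and Actc1 at 0 with DMSO. Compared between lines, the response to dTAG13 was lower in the knockout line than in the parental line for 3 members, where 6.92% of all genes were called lower. The difference was -3.60 ± 0.57 (adjusted p = 0.000552) for Tbx18, -1.91 ± 0.54 (adjusted p = 0.0281) for Tbx4 and -1.79 ± 0.43 (adjusted p = 0.0418) for Tbx15, each against a parental line with few counts. The Tbx18 call held without each library in turn. The Tbx4 call was lost without parental DMSO replicate 1 (-1.65, adjusted p = 0.0656), parental dTAG13 replicate 2 (-1.63, adjusted p = 0.11) or 3 (-1.67, adjusted p = 0.069), knockout DMSO replicate 3 (-1.85, adjusted p = 0.0511) and knockout dTAG13 replicate 2 (-1.88, adjusted p = 0.0567) or 3 (-1.71, adjusted p = 0.0664), and in a fit to these groups alone (-1.88, adjusted p = 0.0785). The Tbx15 call was lost without parental DMSO replicate 1 (-1.65, adjusted p = 0.0988) or 3 (-1.71, adjusted p = 0.0823), parental dTAG13 replicate 1 (-1.92, adjusted p = 0.0529) or 2 (-1.64, adjusted p = 0.129), knockout DMSO replicate 2 (-1.71, adjusted p = 0.0632) and knockout dTAG13 replicate 1 (-1.71, adjusted p = 0.0643) or 2 (-1.80, adjusted p = 0.0509), with no filter on low counts (-1.77, adjusted p = 0.065) and in a fit to these groups alone (-1.76, adjusted p = 0.0632). In the dataset with SUV2 the same difference was called for none of these 3 genes, at -0.84 ± 0.58 (adjusted p = 0.398) for Tbx18, 0.48 ± 0.67 (adjusted p = 0.717) for Tbx4 and -0.76 ± 0.39 (adjusted p = 0.255) for Tbx15. Between cells with S12N:SD2 and the knockout line no response differed with edgeR or DESeq2, where 0.822% of all genes were called higher and 1.24% lower. Tbx4, the 1 member at an unadjusted p under 0.05, was at 1.53 ± 0.41 (adjusted p = 0.0681) and passed in a fit to these groups alone (1.53, adjusted p = 0.0133).

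The degron series follows the members after SUZ12 protein is depleted. Over the first 8 h no member was called in edgeR or DESeq2 at 2, 4 or 8 h. At an unadjusted p under 0.05 there was Tbx2 at 2 h (1.29 ± 0.51, adjusted p = 1), no member at 4 h and Tbx18 at 8 h (1.09 ± 0.35, adjusted p = 0.438). Over all genes tested, 0% were higher at 2 h, 0.00713% at 4 h and 0.0285% at 8 h. Tbx15, the most abundant member, had 11, 12.6 and 13 CPM with DMSO, 11.9, 14.1 and 9.47 CPM at 2 h, 11.2, 12.9 and 14.2 CPM at 4 h and 15, 13.2 and 14.7 CPM at 8 h. Only the 8 h libraries all lay above those with DMSO, by 0.23 ± 0.15 (adjusted p = 0.999). Tbx18 averaged 0.661 ± 0.207 CPM with DMSO, 0.726 ± 0.322 CPM at 2 h, 1.1 ± 0.297 CPM at 4 h, 1.41 ± 0.314 CPM at 8 h, 0.633 ± 0.247 CPM at 24 h and 3.51 ± 0.384 CPM at 48 h. The 8 h libraries lay above those with DMSO, and the 24 h libraries overlapped them.

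At 48 h of auxin all 6 members tested were higher than with DMSO, where 20.2% of all genes were higher. Tbx15 had 34.2, 31.7 and 32.4 CPM at 48 h, against 11, 12.6 and 13 CPM with DMSO, a log2 change of 1.42 ± 0.15 (adjusted p = 1.73e-06). Tbx5 had 3.77, 5.72 and 5.25 CPM at 48 h, against 0.707, 0.0556 and 0.0587 CPM with DMSO, at 4.23 ± 0.55 (adjusted p = 1.45e-05) on 160 counts against 13 (counting interval 3.43 to 5.19). The DMSO libraries of Tbx5 were uneven, replicate 1 being the highest, and all lay below the 48 h ones. Tbx20 had 3.24, 3.09 and 3.37 CPM at 48 h, against 0.707, 0.111 and 0.587 CPM with DMSO, at 2.82 ± 0.48 (adjusted p = 0.000208) on 106 counts against 23 (counting interval 2.17 to 3.55), and Tbx18 was at 2.42 ± 0.34 (adjusted p = 2.79e-05). Tbx4 had 32 counts at 48 h and 2 with DMSO, a log2 ratio of 4.63 (counting interval 2.66 to 7.73, adjusted p = 0.001). With 2 counts under DMSO, a test could hardly find Tbx4 lower, here or at 24 h. Tbx2 had 1.14, 0.656 and 1.41 CPM at 48 h, against 0.578, 0.111 and 0.411 CPM with DMSO, at 1.57 ± 0.52 (adjusted p = 0.0218). Its call was lost without DMSO replicate 2 (1.12, adjusted p = 0.0952) and without 48 h replicate 1 (1.53, adjusted p = 0.058) or 3 (1.33, adjusted p = 0.0915). At 48 h, fibroblast or feeder markers summed to 18.7 to 20.9 CPM, against 5.34 to 6.28 CPM with DMSO, with 3 of 4 tested higher and 0 lower, and Dcn at 0 at 48 h, and Col3a1, Dcn, Lum, Postn and Twist2 with DMSO. The sum of cardiomyocyte markers was 67 to 71.5 CPM, against 19.7 to 32.2 CPM with DMSO, with 4 of 6 tested higher and 0 lower, and Actc1 at 0 in both. The sum of primitive endoderm markers was 147 to 158 CPM, against 70.7 to 102 CPM with DMSO, with 5 of 9 tested higher and 0 lower, and Foxa2 at 0 with DMSO. The sum of nascent and paraxial mesoderm markers was 429 to 466 CPM, against 547 to 606 CPM with DMSO, with 3 of 5 tested higher and 1 lower, and Msgn1 at 0 at 48 h, and Evx1, Meox1, Mesp1 and Msgn1 with DMSO. In these libraries, trophoblast markers had 192 to 199 CPM, against 161 to 174 CPM with DMSO, with 2 of 7 tested higher and 0 lower, and Cdx2 and Plac1 at 0 with DMSO.

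At 24 h, Tbx2, Tbx4 and Tbx5 were higher than with DMSO and Tbx15, Tbx18 and Tbx20 were not called, where 16.4% of all genes were higher. Tbx2 had 1.85, 1.47 and 1.99 CPM at 24 h, against 0.578, 0.111 and 0.411 CPM with DMSO, at 2.32 ± 0.50 (adjusted p = 0.00237) on 50 counts against 18 (counting interval 1.56 to 3.23). Tbx5 had 0.985, 1.79 and 0.995 CPM at 24 h, against 0.707, 0.0556 and 0.0587 CPM with DMSO, at 2.21 ± 0.65 (adjusted p = 0.0157) on 32 counts against 13 (counting interval 1.22 to 3.24). Tbx4 had 17 counts at 24 h and 2 with DMSO, a log2 ratio of 3.98 (counting interval 1.90 to 7.13, adjusted p = 0.00989). None of the 3 overlapped between the groups, while Tbx15, at 0.11 ± 0.15 (adjusted p = 0.619), did. In a fit to the 24 h and DMSO libraries alone all 3 calls were lost, at log2 changes of 2.37 (adjusted p = 0.09) for Tbx2, 4.01 (adjusted p = 0.09) for Tbx4 and 2.28 (adjusted p = 0.18) for Tbx5. With replicate 3 as the only 24 h library, Tbx2 and Tbx4 were called and Tbx5 was not (1.97, adjusted p = 0.0571). Tbx5 was also lost without DMSO replicate 2 (1.69, adjusted p = 0.0649) or 3 (1.81, adjusted p = 0.0516) and without 24 h replicate 2 (1.94, adjusted p = 0.0531). At 24 h, primitive endoderm markers summed to 65.7 to 215 CPM, against 70.7 to 102 CPM with DMSO, with 6 of 9 tested higher and 0 lower, and Foxa2 at 0 with DMSO. The cardiomyocyte markers summed to 26.3 to 56.1 CPM, against 19.7 to 32.2 CPM with DMSO, with 2 of 6 tested higher and 0 lower, and Myh7 at 0 at 24 h, and Actc1 with DMSO. For fibroblast or feeder markers the sum was 8.31 to 12.9 CPM, against 5.34 to 6.28 CPM with DMSO, with 2 of 4 tested higher and 0 lower, and Col3a1, Postn and Twist2 at 0 at 24 h, and Col3a1, Dcn, Lum, Postn and Twist2 with DMSO. For trophoblast markers the sum was 191 to 206 CPM, against 161 to 174 CPM with DMSO, with 2 of 7 tested higher and 0 lower, and Elf5 and Plac1 at 0 at 24 h, and Cdx2 and Plac1 with DMSO. Among the 6 members tested, Tbx2 alone had a higher mean at 24 h (1.77 ± 0.27 CPM) than at 48 h (1.07 ± 0.38 CPM), and that difference was not tested. Tbx2 also had 1.1, 0.88 and 0.681 CPM at 2 h, all above DMSO. At 4 h it had 0.124, 0.619 and 0.497 CPM, which overlapped DMSO.

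**Figure D3:**
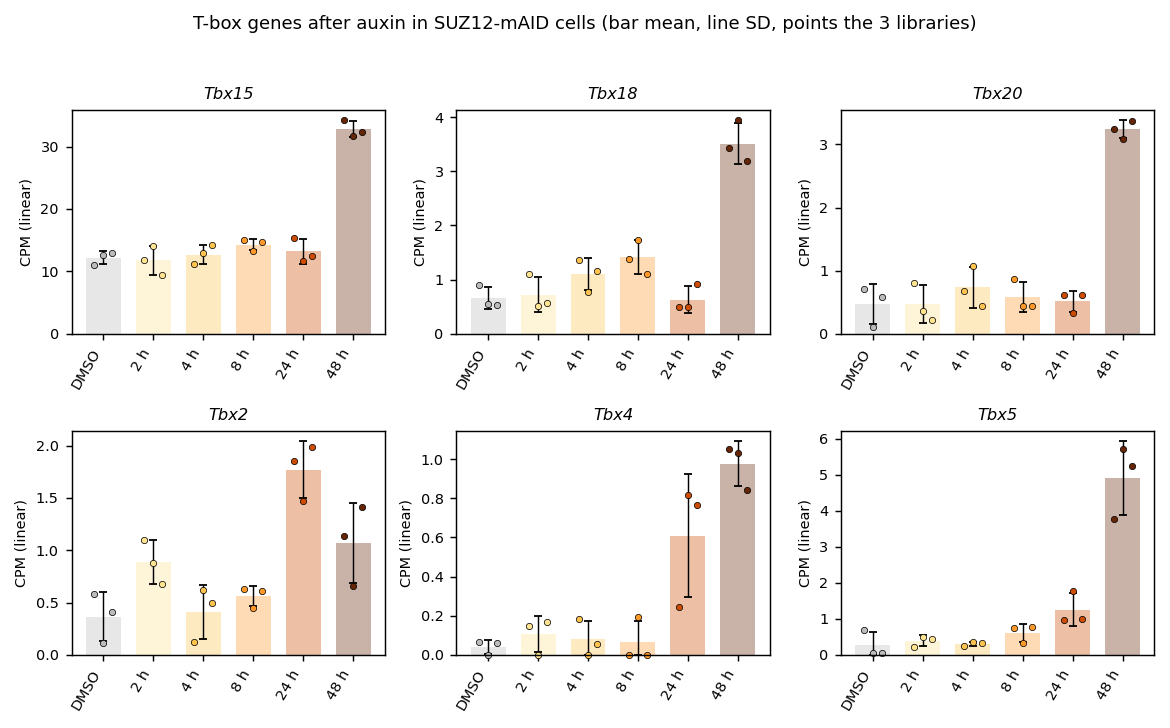
Levels of the 6 T-box genes tested in the degron dataset, in CPM on linear axes from 0, with DMSO at the left and then auxin for 2, 4, 8, 24 and 48 h; bars are means, lines SDs and points the 3 libraries. Tbx15, Tbx18 and Tbx20 reach their highest levels at 48 h. Tbx2, Tbx4 and Tbx5 are above DMSO in the 3 libraries at 24 h. Tbx2 is also above DMSO in the 3 libraries at 2 h and overlaps it at 4 and 8 h.

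In the HP1a dataset 5 of the 6 members tested were higher in Suz12 knockout than in wild-type cells, where 22.2% of all genes were higher. Tbx15 had 7.46, 8.17 and 5.21 CPM in knockout cells, against 0.45, 1.17 and 0.318 CPM in wild-type cells, at 3.42 ± 0.34 (adjusted p = 2.9e-11) on 235 counts against 20 (counting interval 2.83 to 4.22). Tbx20 had 12.9, 9.56 and 9.34 CPM in knockout cells, against 3, 2.62 and 3.34 CPM in wild-type cells, at 1.84 ± 0.23 (adjusted p = 1.15e-08). Tbx18 had 2.53, 3.26 and 1.08 CPM in knockout cells, against 0, 0.388 and 0 CPM in wild-type cells, at 4.18 ± 0.80 (adjusted p = 3.06e-05) on 85 counts against 4 (counting interval 2.93 to 6.25). None of these overlapped, nor did Tbx1, at 3.57 ± 0.71 (adjusted p = 5.66e-05) on 63 counts against 5 (counting interval 2.29 to 5.26), or Tbx4, at 2.98 ± 0.87 (adjusted p = 0.00504) on 41 against 5 (counting interval 1.63 to 4.66). Tbx6 had 0, 0.214 and 0.18 CPM in knockout cells, against 0.525, 0.971 and 0 CPM in wild-type cells, and was at -1.83 ± 1.04 (adjusted p = 0.158) with overlap. In these knockout cells, primitive endoderm markers summed to 1414 to 1454 CPM, against 382 to 398 CPM in wild-type cells, with 10 of 10 tested higher and 0 lower. The nascent and paraxial mesoderm markers summed to 820 to 873 CPM, against 311 to 357 CPM in wild-type cells, with 4 of 6 tested higher and 1 lower, and Msgn1 at 0 in both. Fibroblast or feeder markers had 25.7 to 28.6 CPM, against 5.73 to 8.99 CPM in wild-type cells, with 3 of 3 tested higher and 0 lower, and Postn and Twist2 at 0 in these knockout cells, and Col1a2, Dcn, Lum, Postn and Twist2 in wild-type cells. Trophoblast markers had 118 to 130 CPM, against 73.1 to 77.1 CPM in wild-type cells, with 6 of 8 tested higher and 1 lower, and Elf5 and Plac1 at 0 in wild-type cells.

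Full-length SUZ12 lowered Tbx15 and Tbx20 in this knockout, where 14.1% of all genes were lower. Tbx15 had 2.13, 3.34 and 2.98 CPM with full-length SUZ12, against 7.46, 8.17 and 5.21 CPM in the knockout, at -1.38 ± 0.26 (adjusted p = 5.61e-05). Tbx20 had 6.57, 4.97 and 7.39 CPM, against 12.9, 9.56 and 9.34 CPM, at -0.75 ± 0.21 (adjusted p = 0.00448). Neither gene overlapped. Tbx18 was at -1.27 ± 0.53 (adjusted p = 0.0738) and passed without knockout replicate 3 (-1.54, adjusted p = 0.0396) and with no filter (-1.26, adjusted p = 0.0357). Tbx4 was at -1.68 ± 0.72 (adjusted p = 0.0818) and passed without full-length replicate 3 (-2.37, adjusted p = 0.0311). Tbx1 was at -1.11 ± 0.51 (adjusted p = 0.11). With full-length SUZ12, primitive endoderm markers summed to 830 to 885 CPM, against 1414 to 1454 CPM in the knockout, with 0 of 10 tested higher and 10 lower. In these libraries, nascent and paraxial mesoderm markers had 426 to 479 CPM, against 820 to 873 CPM in the knockout, with 1 of 6 tested higher and 4 lower, and Msgn1 at 0 in both. The sum of fibroblast or feeder markers was 11.1 to 12.4 CPM, against 25.7 to 28.6 CPM in the knockout, with 0 of 3 tested higher and 2 lower, and Lum at 0 with full-length SUZ12, and Postn and Twist2 in the knockout. Trophoblast markers went the other way, at 138 to 158 CPM with full-length SUZ12, against 118 to 130 CPM in the knockout. Against wild-type cells, with full-length SUZ12, primitive endoderm markers summed to 830 to 885 CPM, against 382 to 398 CPM in wild-type cells, with 9 of 10 tested higher and 0 lower. The fibroblast or feeder markers summed to 11.1 to 12.4 CPM, against 5.73 to 8.99 CPM in wild-type cells, with 2 of 3 tested higher and 0 lower, and Lum at 0 against wild-type cells, with full-length SUZ12, and Col1a2, Dcn, Lum, Postn and Twist2 in wild-type cells. Against wild-type cells, 4 of 6 members were higher with full-length SUZ12, where 11% of all genes were higher. Tbx15 differed by 2.03 ± 0.38 (adjusted p = 7.34e-05) and Tbx20 by 1.08 ± 0.24 (adjusted p = 0.000712), both without overlap. Tbx1 differed by 2.46 ± 0.76 (adjusted p = 0.0169), lost without wild-type replicate 1 (1.96, adjusted p = 0.115) or 3 (2.09, adjusted p = 0.0579), without full-length replicate 1 (2.39, adjusted p = 0.0514) and in a fit to these 2 groups alone (2.46, adjusted p = 0.0545). Tbx18 had 1.39, 1.3 and 0 CPM with full-length SUZ12, against 0, 0.388 and 0 CPM in wild-type cells, with overlap, at 2.91 ± 0.87 (adjusted p = 0.0135). Without wild-type replicate 1 its adjusted p was 0.119, and without full-length replicate 1 it was 0.093.

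The HP1a chromodomain, a module known to bind histone H3 methylated at lysine 9, was tested on S12N. Against S12N alone, S12N:HP1a gave no member called with edgeR or DESeq2 and none at an unadjusted p under 0.05, where 4.26% of all genes were higher and 2.72% lower. Tbx15 had 9.21, 9.62 and 10.5 CPM with the HP1a fusion, against 8.72, 9.8 and 9.69 CPM with S12N, at 0.06 ± 0.22 (adjusted p = 0.927). Tbx20 had 8.9, 9.24 and 11.1 CPM with the fusion, against 10.7, 12.4 and 9.26 CPM with S12N, at -0.14 ± 0.19 (adjusted p = 0.759). Both genes overlapped. Tbx18 was lower in every fusion library (1.84, 2.48 and 1.94 CPM) than in every S12N library (2.67, 3.78 and 3.11 CPM), at -0.60 ± 0.49 (adjusted p = 0.542), and Tbx4 was higher in every fusion library, at 1.10 ± 0.63 (adjusted p = 0.336); neither passed. Against the knockout, neither the HP1a fusion (all genes, 7.19% higher and 5.95% lower) nor S12N alone (0.77% higher and 1.12% lower) gave a call with edgeR or DESeq2. The 3 Tbx15 libraries with the fusion lay above those of the knockout all the same, at 0.45 ± 0.24 (adjusted p = 0.217). So did the 3 with S12N alone, at 8.72, 9.8 and 9.69 CPM, against 7.46, 8.17 and 5.21 CPM in the knockout. At an unadjusted p under 0.05 there was no member with the fusion and 1, Tbx6, with S12N (2.17 ± 0.98, adjusted p = 0.304, on 30 counts against 5).

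**Figure D4:**
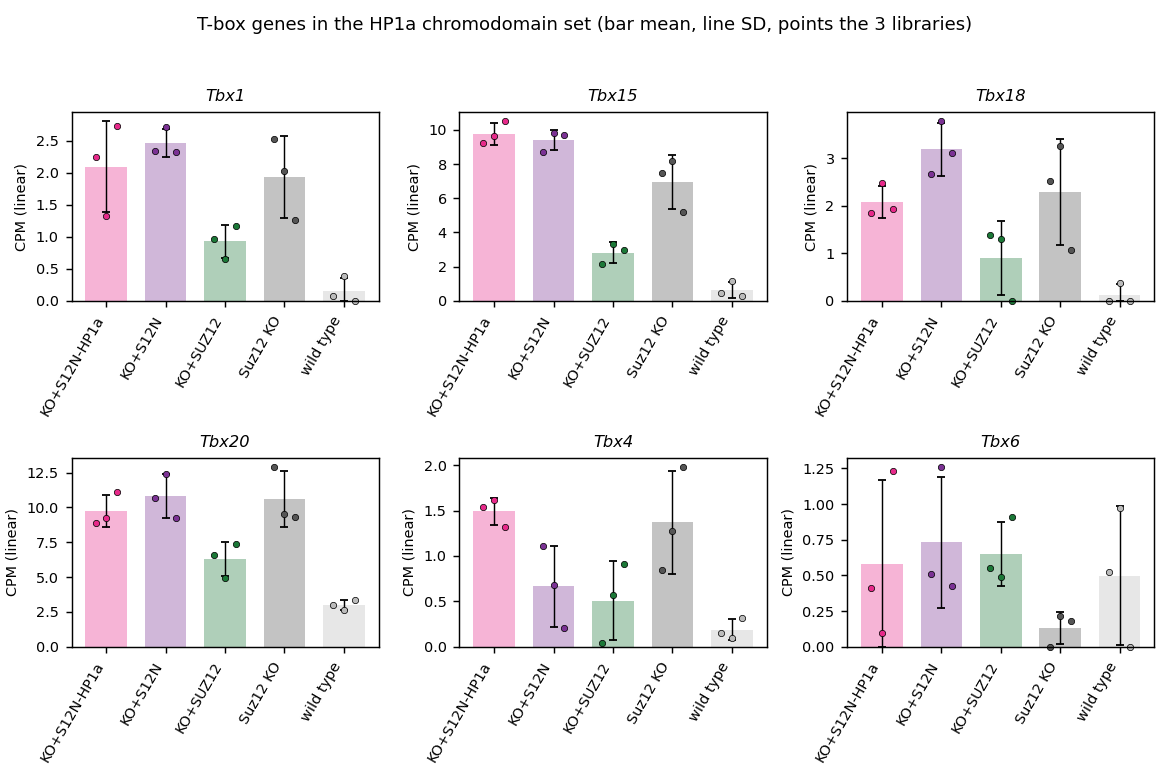
Levels of T-box genes in the HP1a dataset, in CPM on linear axes from 0; bars are means, lines SDs and points the 3 libraries of each group. Tbx15 averages 9.77 CPM with the HP1a fusion, 9.4 with S12N, 2.82 with full-length SUZ12, 6.95 in the knockout and 0.644 in wild-type cells.

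Across the 4 knockout comparisons, which share no library, Tbx1, Tbx15, Tbx18 and Tbx20 were called higher in 4 of 4, Tbx4 in 3 of 4 and Tbx5 in 2 of the 2 in which it was tested. Tbx5 had no read in the wild-type cells, or the parental line with DMSO, of these datasets. It passed the filter only through other groups, so a test there could only find it higher. Tbx1 with 1 parental count in the dataset with SUV2, and Tbx18 with 3 in that with SD2, could hardly be found lower either. The size varied between datasets. For Tbx20 the log2 change was 0.59 ± 0.23 in the rescue panel, 3.06 ± 0.10 and 2.61 ± 0.17 in the RBBP5 datasets with SUV2 and SD2, and 1.84 ± 0.23 in the HP1a dataset. For Tbx15 it was 2.68 ± 0.22, 4.89 ± 0.18, 5.06 ± 0.20 and 3.42 ± 0.34 in the same order. The knockout line has the same name in both RBBP5 datasets, so these 2 comparisons are not of separate lines. Lines, kits or processing differ among the 4 datasets, and the differences in size were not tested. Tbx2 and Tbx6 were the members without a call in the knockout comparisons, tested in 1 and 2 of the 4. Tbx2 was called in the degron series only, and Tbx6 in none of the 13 comparisons in which it was tested. Over all 35 comparisons between groups, Tbx18 was called higher in 13 and lower in 5, Tbx15 higher in 9 and lower in 11, Tbx20 higher in 10 and lower in 5, Tbx4 higher in 9 and lower in 6, Tbx1 higher in 9 and lower in 3 of the 30 in which it was tested, and Tbx5 higher in 6 and lower in 5 of 22. Many of these comparisons share groups, so these totals only describe where the members were called.

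**Figure D5:**
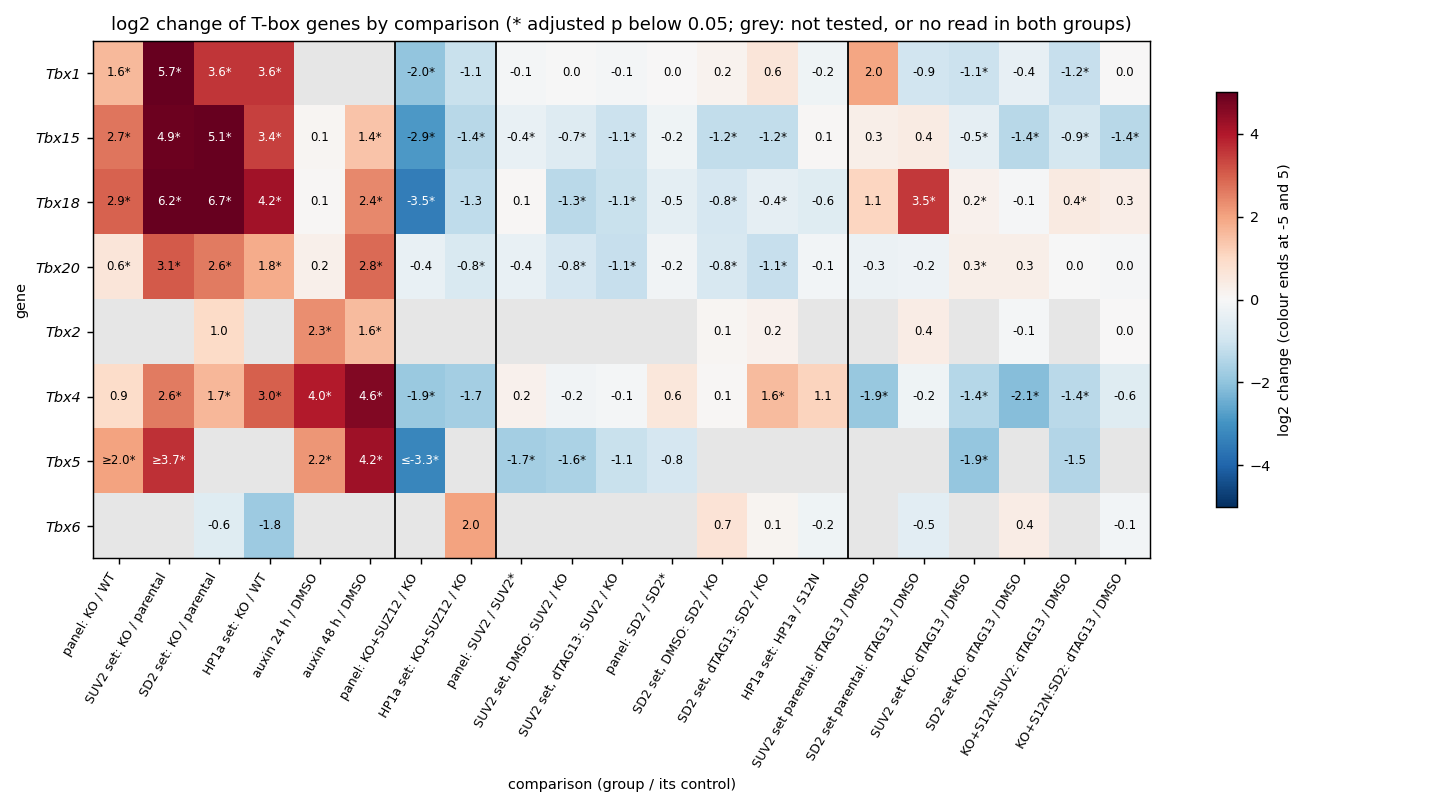
Log2 changes of the 8 T-box genes (rows) in the comparisons between groups (columns), with red for higher and blue for lower in the first-named group, an asterisk for an adjusted p below 0.05, a ≥ or ≤ sign for a bound against a group with no read, and grey where a gene was not tested or had no read in both groups. Vertical lines separate knockout or auxin, returned SUZ12, S12N and fusion, and dTAG13 comparisons. The 4 knockout columns are red for Tbx1, Tbx4, Tbx15, Tbx18 and Tbx20. Tbx5 is red in the 2 in which it was tested and grey in the others.

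Per kilobase of exon, Tbx15 had the highest level of the 8 in Suz12 knockout cells of all 4 datasets that hold them, with DMSO in the RBBP5 datasets: 2.24 CPM per kb in the rescue panel, 2.46 and 2.07 in the RBBP5 datasets with SUV2 and SD2, and 1.85 in the HP1a dataset. Tbx18 and Tbx20 followed, at 0.648 and 0.601 CPM per kb in panel knockout cells, except that Tbx1 (0.552) lay between Tbx20 (0.885) and Tbx18 (0.485) in the HP1a dataset. With dTAG13 the order in the knockout lines was Tbx20 (2.43 CPM per kb), Tbx18 (2.22) and Tbx15 (1.8) in the dataset with SUV2, and likewise Tbx20 (1.45), Tbx18 (1.36) and Tbx15 (0.79) in that with SD2. In wild-type cells of the panel the order was Tbx20 (0.4 CPM per kb), Tbx15 (0.359), Tbx6 (0.189) and Tbx4 (0.153), with Tbx5 at 0. The degron line stood out among cells with SUZ12, with Tbx15 at 3.26 CPM per kb under DMSO and Tbx18 next at 0.14; at 48 h of auxin, Tbx15 was at 8.74 and Tbx5 second at 1.05. These levels were set per dataset, each normalised on its own.

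The genes whose levels ran closest to a member's were ranked by Pearson's r of log2 CPM, centred within each dataset, over all libraries in which both were tested. Genes named Gm and a number, genes with Rik in their name and the members themselves were left out of the ranking. For Tbx15 these were Plagl1 (0.944), Slco2a1 (0.938) and Hmga2 (0.933) over 93 libraries, and for Tbx18 Meis1 (0.923), Reep1 (0.921) and Cbx8 (0.92). For Tbx20 they were Phlda1 (0.901), Pitx1 (0.875) and Ak4 (0.873), for Tbx4 Anpep (0.777), Runx3 (0.774) and Tmem266 (0.756), for Tbx1 Rnf17 (0.916), Nr2f2 (0.914) and Dpp4 (0.913) over 75 libraries and for Tbx5 Mgll (0.885), Fam174b (0.866) and Npy (0.858) over 60. Tbx15 and Tbx18 had an r of 0.917 with each other. The libraries of a dataset share groups, kits and depth, so these values describe likeness in this series only.

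The nearest protein-coding genes were followed as well. Of the 14 outside the family, 9 were tested in the panel knockout comparison, with 1 higher and 2 lower, where 23.8% of all genes were higher and 23.2% lower. In the RBBP5 dataset with SUV2 it was 2 higher and 6 lower of 9 (all genes, 36.9% and 34.9%), and in that with SD2 2 higher and 3 lower of 10 (all genes, 31.8% and 27.2%). In the HP1a dataset it was 4 higher and 0 lower of 9 (all genes, 22.2% and 19.6%), and at 48 h of auxin 3 higher and 3 lower of 9 (all genes, 20.2% and 23.8%). So few genes are given as a description only. Wars2, a mitochondrial tRNA synthetase gene that ends 1195 bases before Tbx15, was at 0.01 ± 0.13 (adjusted p = 0.953) in the panel knockout against wild type, and was lower in the knockout line of the RBBP5 dataset with SUV2, at -0.46 ± 0.11 (adjusted p = 0.000384). Nt5e, which encodes an ecto-nucleotidase and is the nearest protein-coding gene on the higher-coordinate side of Tbx18, 595937 bases away, was higher in all 4 knockout comparisons, by 1.53 ± 0.31, 4.16 ± 0.16, 3.15 ± 0.16 and 1.51 ± 0.30, and at 48 h of auxin, by 3.42 ± 0.64. Tbx3, a T-box gene of the stem cell network and limb that lies 147944 bases from Tbx5, had a mean of 296 CPM in panel knockout cells, against 28.6 CPM in wild-type cells, at 3.37 ± 0.15 (adjusted p = 2.58e-15). It was also higher in the other 3 knockout comparisons (2.91 ± 0.04, 2.51 ± 0.05 and 1.16 ± 0.04), and was at 0.48 ± 0.24 (adjusted p = 0.125) at 48 h of auxin.

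Beside the 8 members, 9 other T-box genes and a list of 37 genes known as partners or targets of T-box factors were followed. Both lists were chosen with earlier results of these data known. In the panel knockout, 2 of the 5 other T-box genes tested were higher and none lower, Tbx3 and Eomes (1.59 ± 0.25). Of the partners and targets, 28 were tested and 17 were higher and 6 lower, with a median log2 change of 1.53, against -0.02 for all genes, of which 23.8% were higher and 23.2% lower. Fgf10, the limb and lung growth factor, was higher by 2.66 ± 0.14 and Cdkn2a, a cell cycle inhibitor that Tbx2 and Tbx3 are known to repress, by 3.66 ± 0.18. Bmp4, a signal of the early heart and limb, was lower at -1.15 ± 0.07 and Eya1, a pharyngeal regulator, at -2.17 ± 0.14. With SUZ12 returned, 16 of 28 were lower than in the knockout and 6 higher (all genes, 24.2% and 24.4%), with Fgf10 at -2.99 ± 0.12. In the knockout lines of the RBBP5 datasets 20 were higher and 7 lower of 28 with SUV2 (all genes, 36.9% and 34.9%), and 18 and 6 of 28 with SD2 (all genes, 31.8% and 27.2%). In the HP1a dataset it was 17 and 3 of 24 (all genes, 22.2% and 19.6%). With S12N:SUV2, 14 of 28 were lower and 5 higher than in its knockout line (all genes, 25.4% and 23.3%). Gata4, a heart and endoderm factor, was at -1.76 ± 0.08. With S12N:SD2, 8 of 28 were lower and 6 higher than in its knockout line (all genes, 14.9% and 13%). At 48 h of auxin 5 of 17 were higher and 1 lower, where 20.2% of all genes were higher and 23.8% lower, so these counts are no result about the list. Those higher include Pitx1, a hindlimb factor that acts upstream of Tbx4, by 4.58 ± 0.70, and Isl1, a factor of heart and hindlimb progenitors, by 2.23 ± 0.37. T rose by 3.52 ± 0.35.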

How the data were processed

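RNA sequencing read counts per gene were used for 93 libraries, 3 in each of 31 groups, as the authors deposited them. Per the submitters' processing notes, the counts of the rescue panel and of the RBBP5 dataset with SUV2 came from reads trimmed with Trim Galore 0.4.5, aligned to mm10 with STAR 2.4 and counted with HTSeq 0.9.1. Those of the RBBP5 dataset with SD2 came from Trim Galore 0.6.7, HISAT2 2.2.1 and featureCounts 2.0.8. Those of the degron and HP1a datasets came from Trimmomatic and HISAT2, with the counting tool not given in the sources used here. No strand setting was named for any count table. Columns of the rescue panel were tied to samples by their wording against the labels, since their names differ from the sample titles (VSET for S12N:SD2, DVFullH2 for S12N:SUV2, VEFS for S12N). Its knockout and wild-type columns are named in another style than the rest, and wild type was assigned as the only set left. Symbols were at hand for 25275 of the 27179 Entrez gene IDs.

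Counts were tested separately by dataset. edgeR 4.0.16 (R 4.3.3) was run with TMM factors, after genes with low counts in their groups had been removed, as a quasi-likelihood F test on a design with 1 mean per group. It covered 16230, 15757, 15211, 14016 and 14026 genes tested in the rescue panel, the RBBP5 datasets with SUV2 and SD2, the degron and the HP1a dataset. There were 39 comparisons, 4 of them differences between changes. Scripts were tested on simulated data with known changes. CPM use the TMM-scaled library size. With 3 libraries a group, depth limits the precision of members with few counts. Folds against a group with no read use a floor of 3 counts over the group. Intervals and floors cover counting error only. The alternatives were DESeq2 1.42.0 as test and as scaling, no filter on low counts, the groups compared alone, a replicate block, and each library left out. Chosen after seeing the data were the degron course without its 24 h libraries, its 24 h group with replicate 3 alone, and the block in a fit to panel knockout and wild type only. The members, the gene lists and the comparisons were chosen with earlier results of these data known. All 8 members are named whatever their values. Of the other lists, at most 4 genes per comparison are named by smallest p. Likeness names the 3 genes with the highest r among those ranked, without Gm and Rik names and without members.

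The labels describe biological triplicates for all but the RBBP5 dataset with SD2. In every dataset p-values measure only the spread between these samples. The labels name no number of clones per line. Where lines are compared, a line or clone therefore cannot be told apart from its knockout or construct. Replicate numbers were checked for pairing. Deviations of same-numbered libraries from their group means correlated above 0.1 for each pair between panel knockout and wild type only (r of 0.17, 0.12 and 0.122 for replicates 1, 2 and 3), and the range over all pairs was -0.49 to 0.347. The pairing comes from the data and not from a batch in the labels. Samples treated with a KDM4 inhibitor (12 in 4 groups) were not analysed here.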

Additional observations from a re-analysis of the deposited data

Results flagged for a closer look

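The results below are differences between lines in the response to dTAG13, each found by a test of the difference itself in edgeR. In the RBBP5 dataset with SUV2, the log2 response of Tbx20 differed by 0.6 between the Suz12 knockout line and the parental line, and by -0.31 between cells with S12N:SUV2 and the knockout line. With each of the 12 libraries left out in turn, the first call was lost in 3 fits and the second in 10. The second was also lost with DESeq2 and with no filter on low counts.

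In the RBBP5 dataset with SD2, the response was lower in the knockout line than in the parental line for 3 genes, with a difference of -3.6 for Tbx18, -1.91 for Tbx4 and -1.79 for Tbx15. The same difference in the dataset with SUV2 was called for none of the 3, at -0.84 for Tbx18, 0.48 for Tbx4 and -0.76 for Tbx15. With each of the 12 libraries left out in turn, the Tbx4 call was lost in 6 fits and the Tbx15 call in 7. Both were lost in a fit to these groups alone, and Tbx15 also with no filter on low counts (-1.77, adjusted p = 0.065 in edgeR). The Tbx18 call held without each library in turn. For Tbx18 the 3 dTAG13 libraries of the parental line all lay above its DMSO libraries, while those treatments overlapped in the knockout line. The parental values rest on 29 counts with dTAG13 and 3 with DMSO. Their means were 0.755 and 0.0658 CPM, against 6.43 and 6.68 CPM in the knockout line. With single libraries left out, the difference ran from -4.65 to -2.99.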

How the results depend on the processing

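No result changed direction under any alternative run. With DESeq2 size factors and with a replicate block, the numbers of T-box members called stayed within 1.5 times in all 39 comparisons, and the replicate block changed no member's call, also in the comparison of panel knockout and wild type, where the numbers pair. With DESeq2's own test the number fell to 0 for S12N against the knockout (1 in edgeR), to 1 for S12N:SUV2 against S12N:SD2 (3 in edgeR) and to 0 for the dTAG13 response with S12N:SUV2 against the knockout line (1 in edgeR). With no filter on low counts it was 1 for S12N:SUV2 against S12N:SUV2* (2 with the filter), 1 for S12N:SUV2 against S12N:SD2 (3) and 0 for that same dTAG13 response (1). With the groups compared alone it was 0 for S12N against the knockout, 0 at 24 h of auxin (3 with all groups), 1 for the dTAG13 response of the knockout line against the parental line in the dataset with SD2 (3), and 1 for that of cells with S12N:SD2 against the knockout line (0). The cause was not tested.

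Leaving out 1 library at a time gave 0 to 1 members called for S12N against the knockout, 0 to 1 for S12N:SUV2 against S12N:SUV2*, 0 to 2 for S12N:SUV2* against S12N, 0 to 1 for S12N:SD2 against S12N:SD2*, 0 to 1 for S12N:SUV2 against S12N:SD2, 0 to 2 for dTAG13 in the parental line with SUV2, and 0 to 1 for each difference in dTAG13 response in that dataset. It gave 1 to 3 for the knockout line's response against the parental one in the dataset with SD2 and 2 to 4 for full-length SUZ12 against wild type. Of 258 such fits, 220 kept the number of members called within 1.5 times. In 14 comparisons every call held without each library in turn, among them 5 of 5 for returned SUZ12 against the knockout and 6 of 6 for the knockout line with SUV2.

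Over all genes, fitting only the groups compared moved the number called to 1104 (from 1687 with all groups) for returned SUZ12 against wild type, to 121 (619) for S12N against the knockout, to 5992 (3676) for S12N:SUV2 against S12N:SUV2* and to 644 (2123) for S12N:SD2* against S12N. In the dataset with SD2 it moved to 7296 (4257) for the fusion against the knockout line, to 2955 (6354) and 9040 (5804) for dTAG13 in the parental and knockout lines, and to 1088 (1842) and 2658 (314) for the differences in response, the last being 594 with DESeq2. For S12N against the knockout in the HP1a dataset it moved to 536 (265). At 8 h of auxin 5 genes were called, 76 with DESeq2 and 160 without the 24 h libraries, and at 4 h 1, 6 and 3. At 24 h, 2295 genes were higher and 2510 lower, and with DESeq2 size factors 2676 were higher and 1794 lower, which is the one split by direction that another scaling moved by over 10 percentage points with more than 100 genes called. With replicate 3 as the only 24 h library, 2 members were called at 24 h. Depth limits the members with fewer than 30 counts in a group, and calls on many more counts were lost as well, such as Tbx15 for S12N:SUV2 against S12N:SUV2* (490 counts against 704).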
